A study of Mus musculus with 18 samples.

Results

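Megf6, Megf9, Megf10 and Megf11 encode proteins with multiple EGF-like repeats, short cysteine-rich modules found in many cell-surface and extracellular proteins. The 4 genes were taken by symbol from the deposited tables of striatum and substantia nigra, and all 4 were listed in both, out of 21753 genes listed in at least 1 table. The members were chosen by symbol, and the family was selected on the measured level of Megf9, which was lower in nigra libraries labelled 6-OHDA than in nigra libraries labelled PBS. Values of that contrast are therefore given as a description, with no test.

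RNA was sequenced from 2 tissues of wild-type C57BL6 mice, with 3 libraries for each of 3 groups per tissue and 18 libraries in all. The PBS group received phosphate-buffered saline into the striatum and by intraperitoneal injection. The 6-OHDA group received 4 µg of 6-hydroxydopamine, a toxin taken up by dopamine neurons, into the striatum and PBS by intraperitoneal injection. The TUG469 group received the same toxin and intraperitoneal TUG469, an agonist of the fatty acid receptor GPR40, at 10 mg/kg per day. An intracranial injection and an intraperitoneal injection were thus common to all groups, and all samples carried a time label of 3 weeks. The labels give no age and do not say whether libraries came from separate animals, so p-values measure only the spread between these libraries, which may be technical.

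Total counts ran from 42242389 to 61992226 per library, and the smallest count of any member in any library was 172. In the nigra, Th, the rate-limiting enzyme of dopamine synthesis, was at 25.4 to 38.4 CPM (read counts relative to the TMM-adjusted library size) in PBS libraries, 42.6 to 61.5 in libraries labelled 6-OHDA and 12.6 to 20.8 in libraries labelled TUG469. Slc6a3, the dopamine transporter, was at 49.1 to 70.1, 44.7 to 66.8 and 11.8 to 16.8 CPM in the same order. The libraries labelled 6-OHDA thus lay above all PBS libraries for Th and overlapped them for Slc6a3, against what the label of a dopamine neuron toxin would give, while those labelled TUG469 lay below all others for both. Groups are named by their labels, and a direction for 6-OHDA refers to the libraries labelled so.

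MEGF10 and MEGF11 are closely related single-pass membrane proteins. MEGF10 is the mammalian relative of engulfment receptors of worm and fly, serves mouse astrocytes as a receptor for the removal of synapses and apoptotic cells, and binds the complement protein C1q. In the mouse retina both proteins act in the mutual spacing of neurons of one type. MEGF9 carries repeats of the kind found in laminins and is made in the developing and adult nervous system, and MEGF6 is a little-studied protein with many EGF-like repeats.

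Megf9 (gene 230316) lies on chromosome 4 of build GRCm38, from 70431927 to 70534928 on the minus strand. Its longest GENCODE coding transcript has 6 exons and 7924 bases, of which only 1800 are coding. Megf6 (gene 230971) lies on the same chromosome from 154170704 to 154275721 on the plus strand, with 37 exons and 6851 bases. No gene on the opposite strand overlaps any of the 4 members in GENCODE, and 1 processed pseudogene lies within Megf6 on the same strand.

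Promoter sequences from RefSeq (GRCm38.p6) were matched for 2 of the 4 members, Megf6 and Megf9. They are shown because Megf9 is the member whose level differed between groups of nigra libraries, and Megf6, on the same chromosome, is the other member in the table. Each line gives the 250 bases before the start used in that table, 5′ to 3′ on the strand of the gene, at chr4:70534929-70535178 (minus strand) for Megf9 and chr4:154170463-154170712 (plus strand) for Megf6. Capitals mark 3 motifs found on either strand: the CCAAT box, the E-box written CACGTG, and the GC box written GGGCGG. The TATA box, written TATAAA, was searched too.
Megf9: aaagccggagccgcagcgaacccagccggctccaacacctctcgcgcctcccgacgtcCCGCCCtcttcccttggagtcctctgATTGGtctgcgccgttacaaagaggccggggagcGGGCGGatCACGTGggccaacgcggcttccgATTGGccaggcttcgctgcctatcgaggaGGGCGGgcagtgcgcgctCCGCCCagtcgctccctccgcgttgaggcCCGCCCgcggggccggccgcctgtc
Megf6: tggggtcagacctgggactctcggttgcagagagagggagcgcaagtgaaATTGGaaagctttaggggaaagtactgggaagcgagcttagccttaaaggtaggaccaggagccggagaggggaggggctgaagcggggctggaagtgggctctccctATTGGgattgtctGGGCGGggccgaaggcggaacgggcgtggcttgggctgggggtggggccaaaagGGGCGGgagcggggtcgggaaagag

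The Megf9 window is 71.6% G and C and holds GGGCGG 5 times, CCAAT 2 times and CACGTG 1 time. The Megf6 window is 63.2% G and C and holds GGGCGG 2 times, CCAAT 2 times and CACGTG 0 times. Neither holds TATAAA, and no marked match overlaps another. Among 32851 promoters of the same length in the table, 32.7% hold GGGCGG at least once (8.47% hold it 3 or more times), 33.8% hold CCAAT, 6.02% hold CACGTG and 12.4% hold TATAAA. These are matches of letters, not sites.

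In the nigra, Megf9 was high in every PBS library, intermediate in every library labelled 6-OHDA and lowest in every library labelled TUG469. Megf9 stood at 63.0, 61.0 and 58.3 CPM in PBS libraries 1, 2 and 3. It stood at 39.0, 39.9 and 35.7 CPM in the libraries labelled 6-OHDA 2, 3 and 4, the contrast that chose it. It stood at 32.6, 31.4 and 30.9 CPM in the libraries labelled TUG469 1, 2 and 4, which had no part in the choice. The 3 groups did not overlap at any point (60.8 ± 2.39, 38.2 ± 2.23 and 31.6 ± 0.914 CPM, mean ± SD, n = 3 each). PBS lay far from the others beside the spread within a group. The lowest 6-OHDA library, at 35.7 CPM, and the highest TUG469 library, at 32.6, lay closer than the 6-OHDA libraries spread, 35.7 to 39.9.

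The log2 change of Megf9 from edgeR was −0.67 (SE 0.0602) for 6-OHDA against PBS, a level 0.628 times that of PBS. It was −0.94 (SE 0.0606) for TUG469 against PBS, a level 0.52 times that of PBS, and −0.27 (SE 0.0604) for TUG469 against 6-OHDA. The last 2 share the PBS or the 6-OHDA libraries with the contrast that chose the gene, so they too are given without a test. In the authors' deposited table the signed folds of Megf9 were −1.59, −1.92 and −1.21 in the same order. Over all genes tested in the nigra, edgeR called 0.00508% in 6-OHDA against PBS, 1.85% in TUG469 against PBS and 0.00508% in TUG469 against 6-OHDA. Groups did not overlap, with the first-named group lower, for 10.7%, 12.3% and 7.19% of genes in these comparisons. Megf9 belonged to that set in all 3. For TUG469 against PBS edgeR called 364 genes, and in separate fits 8 without PBS 1, 9 without TUG469 2, 83 without TUG469 1, 166 without PBS 2, 263 without TUG469 4 and 527 without PBS 3. DESeq2 called 436, 1553 and 90 genes for 6-OHDA against PBS, TUG469 against PBS and TUG469 against 6-OHDA. The 364 became 57 with the files' length trend removed, 54 with the GENCODE one, 39 with only the compared groups fitted and 13 when blocked by replicate number. At an unadjusted p under 0.05 were 14.3%, 19.7% and 8.2% of genes in the same order.

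**Figure D1:**
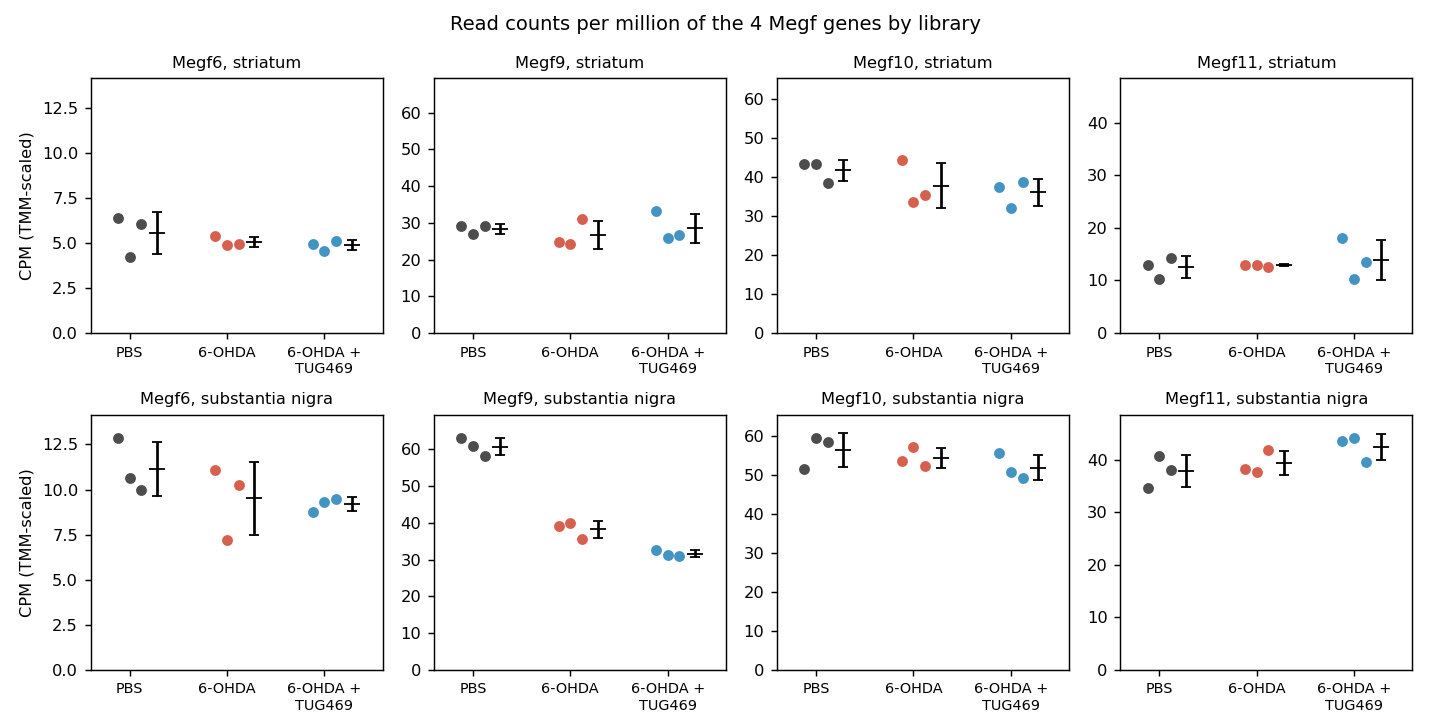
CPM (TMM-scaled; vertical axes from 0, a separate scale for each gene) of the 4 genes in striatum (top) and substantia nigra (bottom); points are libraries in order of their number and bars are mean ± SD over 3 libraries. Megf9 in the nigra falls into 3 separate bands, 58.3 to 63.0 in PBS, 35.7 to 39.9 in 6-OHDA and 30.9 to 32.6 in TUG469 libraries, while its striatal groups overlap.

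Several marker sums also differed between the same nigra libraries, and their part in the Megf9 values was not tested. In bulk tissue, fewer cells of a type and less RNA per cell cannot be told apart. Summed over 6 dopamine neuron markers, the level was 352 to 396 CPM in PBS, 404 to 534 in 6-OHDA and 211 to 334 in TUG469 libraries, so that 6-OHDA libraries were the highest for these markers and intermediate for Megf9. The 8 astrocyte markers summed to 4180 to 4245, 3937 to 4179 and 3711 to 3941 CPM in the same order. The lowest PBS and the highest 6-OHDA sums, 4180 and 4179, were thus nearly equal. The 6 oligodendrocyte precursor markers summed to 273 to 311, 259 to 274 and 226 to 268 in that order. The 5 thalamus markers, which stand for tissue next to the nigra, summed to 459 to 781, 221 to 587 and 245 to 793 CPM. The 6 pan-neuronal markers overlapped between all groups (4401 to 4666, 4381 to 4772 and 4351 to 4564 CPM), as did the 8 oligodendrocyte markers (11240 to 13640, 13040 to 15110 and 12180 to 16540). The 5 mural cell markers were higher in every TUG469 library than in every PBS library (155 to 173, 163 to 183 and 175 to 182). Microglial (185 to 224, 186 to 205 and 194 to 216), endothelial (241 to 255, 228 to 250 and 226 to 257), ependymal (46.5 to 57.6, 28.3 to 51.3 and 33.1 to 52.8) and choroid plexus markers (12.9 to 35.2, 14.8 to 37.7 and 11.4 to 26.8) overlapped between all groups. Meningeal fibroblast markers (89.9 to 198, 134 to 154 and 117 to 130) overlapped between PBS and each other group. No defining marker of these lists was at 0 in the nigra.

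Long transcripts as a whole were lower in both nigra groups than in PBS libraries, and all 4 members belong to the longest of 10 equal classes of genes by GENCODE length. In that class (1759 genes) the median log2 change was −0.13 for 6-OHDA against PBS, with 82.9% of genes lower, and −0.16 for TUG469 against PBS, with 81.8% lower. In the shortest class the medians were 0.11 and 0.12. With a trend on GENCODE length removed from every library, a setting chosen after seeing the data, the change of Megf9 was −0.53 and −0.78 for these 2 comparisons. The paralogs, of similar GENCODE length, were in the same setting at 0.08 and 0.04 for Megf10, 0.17 and 0.30 for Megf11, and −0.11 and −0.14 for Megf6. With lengths taken from the files' own counts and FPKM, which make Megf9 shorter than its GENCODE transcript, its change was −0.66 and −0.94.

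**Figure D2:**
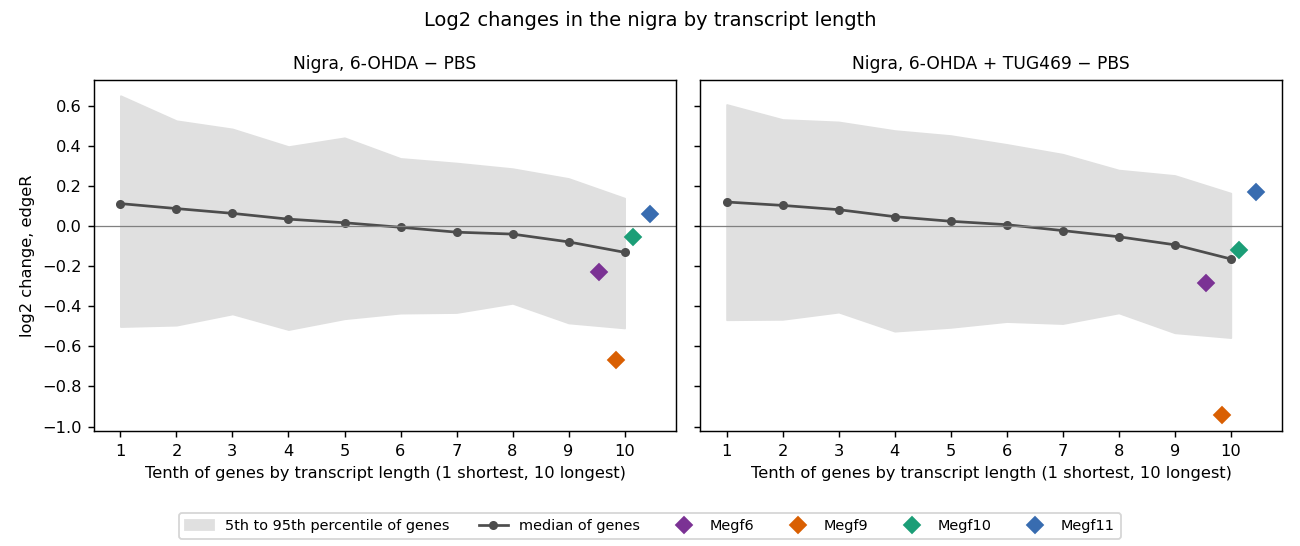
Log2 change (vertical axis) against 10 equal classes of genes by the length of the longest GENCODE transcript (horizontal axis, 1 shortest, 10 longest) in the nigra, for 6-OHDA against PBS (left) and TUG469 with 6-OHDA against PBS (right). The line is the median and the band the 5th to 95th percentile of the genes in a class. The 4 members, all in class 10, are spread sideways only to be seen. Megf9 at −0.67 and −0.94 lies below the band in both panels. It was chosen for the difference on the left, and the right panel shares its PBS libraries.

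In the striatum, the injected tissue, no difference in Megf9 between groups was detected. The gene stood at 29.1, 26.9 and 29.1 CPM in PBS libraries, 24.8, 24.2 and 31.1 in 6-OHDA libraries and 33.1, 25.9 and 26.8 in TUG469 libraries. The 3 groups overlapped throughout. The log2 change was −0.09 (SE 0.122, edgeR adjusted p = 0.934) for 6-OHDA against PBS, 0.10 (SE 0.122, adjusted p = 0.889) for TUG469 against 6-OHDA and 0.01 (SE 0.122, adjusted p = 0.979) for TUG469 against PBS. The 95% interval reached from −0.33 to 0.15 for 6-OHDA against PBS and from −0.23 to 0.25 for TUG469 against PBS. It is a normal approximation from the SE, narrower than the F test gives. Megf9 was not compared between the tissues in a test, because the nigral contrast chose it.

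None of the 4 members passed the threshold (edgeR adjusted p of 0.05) in any of the 3 striatal comparisons, and 0 of 4 had an unadjusted p under 0.05 in each of them. DESeq2 and limma on log2(TPM + 1) also called 0 of 4. Few striatal genes passed at all: edgeR called 0% of genes for 6-OHDA against PBS (1434 at an unadjusted p under 0.05, 172 called by DESeq2), 0.00523% for TUG469 against 6-OHDA and 0% for TUG469 against PBS (2395 at an unadjusted p under 0.05, 319 called by DESeq2). A share of 0 of 4 members is near that background.

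Megf10 (gene 70417) lies on chromosome 18 from 57133090 to 57297467 on the plus strand, with 25 exons and 7514 bases. For this engulfment receptor no difference between groups passed the test in either tissue. In the nigra it stood at 51.4, 59.4 and 58.4 CPM in PBS, 53.7, 57.2 and 52.3 in 6-OHDA and 55.6, 50.8 and 49.4 in TUG469 libraries, and the groups overlapped. Its log2 change was −0.05 (SE 0.0719) for 6-OHDA against PBS, −0.07 (SE 0.0719, edgeR adjusted p = 0.85) for TUG469 against 6-OHDA and −0.12 (SE 0.0719, adjusted p = 0.385) for TUG469 against PBS. In the striatum it stood at 43.4, 43.3 and 38.6 CPM in PBS, 44.4, 33.6 and 35.5 in 6-OHDA and 37.5, 32.1 and 38.8 in TUG469 libraries. The lowest adjusted p of its striatal comparisons was 0.495, for TUG469 against PBS (log2 change −0.21, SE 0.115).

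Megf11 (gene 214058), the close relative of Megf10, lies on chromosome 9 from 64385617 to 64714179 on the plus strand, with 25 exons and 6680 bases. It had its highest mean in nigra libraries labelled TUG469, where Megf9 had its lowest, but the difference did not pass the test. It stood at 34.6, 40.6 and 38.0 CPM in PBS, 38.3, 37.7 and 41.9 in 6-OHDA and 43.5, 44.0 and 39.6 in TUG469 libraries. The TUG469 library with the lowest value lay below the highest PBS library, so the groups overlapped. The log2 change was 0.06 (SE 0.0757) for 6-OHDA against PBS and 0.17 (SE 0.0756, edgeR adjusted p = 0.256) for TUG469 against PBS. In the striatum it stood at 13.0, 10.2 and 14.3 CPM in PBS, 13.0, 12.9 and 12.6 in 6-OHDA and 17.99, 10.4 and 13.5 in TUG469 libraries, and the TUG469 group held the highest value of all. Its SD was 0.193 CPM in 6-OHDA libraries and 3.84 in TUG469 libraries (n = 3 each), and no striatal comparison had an adjusted p below 0.777.

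Megf6 was the least abundant member by counts. In the nigra it stood at 12.8, 10.7 and 9.97 CPM in PBS, 11.1, 7.20 and 10.3 in 6-OHDA and 8.73, 9.32 and 9.47 in TUG469 libraries. All TUG469 libraries lay below all PBS libraries, which held for 12.3% of all genes tested there. The difference did not pass the test (log2 change −0.28, SE 0.155, edgeR adjusted p = 0.343). The change was −0.23 (SE 0.155) for 6-OHDA against PBS, with −0.07 without 6-OHDA 3, −0.12 without PBS 1 and −0.35 without 6-OHDA 2, and −0.05 (SE 0.155, adjusted p = 0.955) for TUG469 against 6-OHDA. In the striatum it ran from 4.22 to 6.37 CPM in PBS, 4.86 to 5.36 in 6-OHDA and 4.56 to 5.10 in TUG469 libraries, and the groups overlapped. Over the 3 paralogs, 0 of 3 passed in either tested nigra comparison and 0 of 3 had an unadjusted p under 0.05 by edgeR, and DESeq2 and limma also called 0 of 3.

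**Figure D3:**
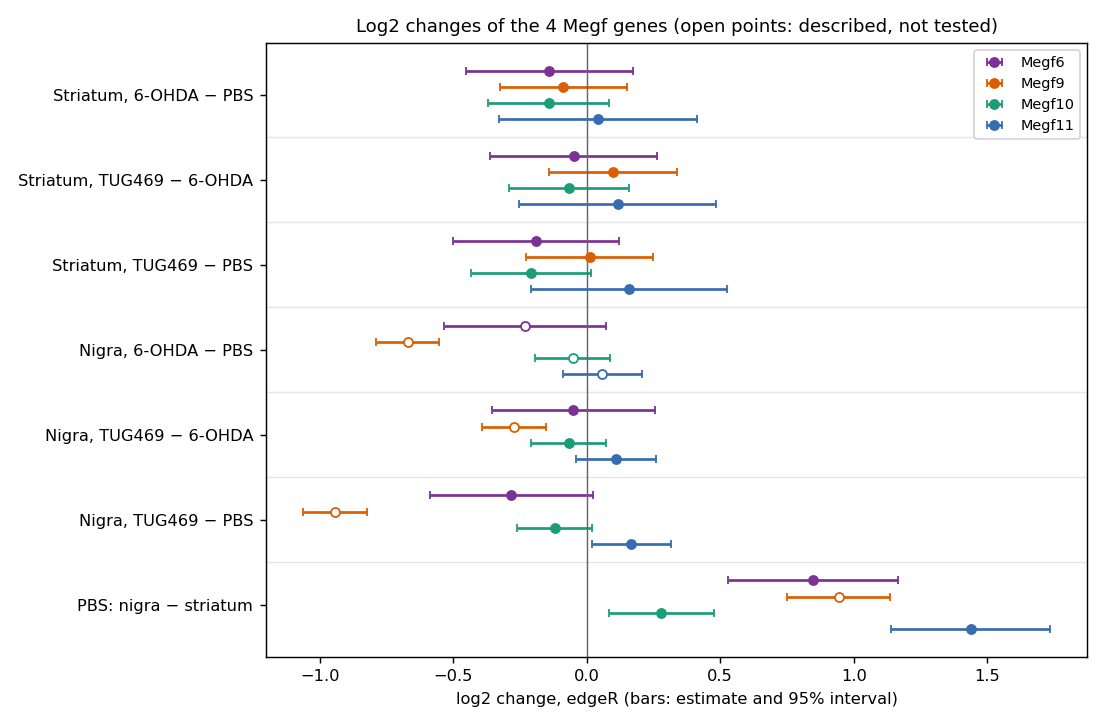
Log2 changes of the 4 genes from edgeR (horizontal axis) in 7 comparisons (rows), with 3 libraries per group. Bars are the estimate with a 95% interval by a normal approximation from its SE, which is narrower than the F test gives. That of Megf11 for TUG469 against PBS in the nigra leaves out 0, while its unadjusted p in the edgeR test was 0.0511. Open points mark values given as a description. Megf9, chosen for its lower level in 6-OHDA than in PBS nigra, is the lowest of the 4 at −0.67, −0.27 and −0.94 in the 3 nigra comparisons. For TUG469 against 6-OHDA there, its interval overlaps those of Megf6 and Megf10. All 4 genes lie above 0 in nigra against striatum of PBS mice.

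The differences between TUG469 and the other groups were also compared between tissues for the 3 paralogs. The difference of log2 changes, nigra minus striatum, was −0.0037 for Megf6, −0.0027 for Megf10 and −0.0067 for Megf11 in TUG469 against 6-OHDA (SE 0.229, 0.142 and 0.21; edgeR interaction, adjusted p = 0.9997 for each). For TUG469 against PBS it was −0.10 (SE 0.228), 0.08 (SE 0.142) and 0.01 (SE 0.211), with adjusted p of 0.923, 0.886 and 0.995. No gene of 18749 passed either interaction test, and none did with the replicate number as a block across tissues (adjusted p of the paralogs from 0.858 to 0.9995).

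All 4 members stood higher in the nigra than in the striatum of PBS mice, and the 3 paralogs of Megf9 passed the test. Scaled together over both tissues, Megf11 stood at 13.7, 10.8 and 15.1 CPM in the striatum and 32.7, 38.6 and 36.0 in the nigra, a log2 difference of 1.44 (SE 0.152, edgeR adjusted p = 8.28e-07). Megf9 stood at 30.7, 28.5 and 30.7 CPM against 59.7, 58.0 and 55.3, a difference of 0.94 (SE 0.099), given without a test because the PBS nigra libraries entered the contrast that chose it. Megf6 stood at 6.72, 4.47 and 6.40 CPM against 12.2, 10.1 and 9.46, a difference of 0.85 (SE 0.162, adjusted p = 0.000337). The groups did not overlap for any of them. The share of all genes without overlap was not computed for this comparison, in which edgeR called 55.8% of genes.

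Megf10 differed least, at 45.9, 45.9 and 40.7 CPM in the striatum and 48.7, 56.5 and 55.4 in the nigra, a log2 difference of 0.28 (SE 0.101, adjusted p = 0.0271). That call was lost with the GENCODE length trend removed (0.13, adjusted p = 0.237), with the length trend from the files' own values removed (0.16, adjusted p = 0.134), and without PBS 3 of the striatum (adjusted p = 0.105), PBS 2 of the nigra (0.0914) or PBS 3 of the nigra (0.0777). Tissue differences were common: edgeR called 55.8% of genes, 28.5% as higher in the nigra, and the 3 of 3 paralogs called higher are set beside these shares.

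Levels per transcript length were compared between members in the deposited TPM values, which are scaled by length and library. In the nigra of PBS mice Megf9 stood at 50.9 ± 2.42 TPM, Megf10 at 19.2 ± 1.61, Megf11 at 14.5 ± 1.14 and Megf6 at 4.28 ± 0.728 (mean ± SD, n = 3 each). In the striatum the order was the same, with 21.7 ± 1.38, 13.0 ± 0.933, 4.19 ± 0.756 and 1.93 ± 0.372 TPM. Neighbours in this order did not overlap in any of the 6 groups, except Megf10 and Megf11 in nigra libraries labelled TUG469 (17.0 ± 1.06 and 15.1 ± 1.22 TPM).

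The place of Megf9 in that order depended on the length used. Counts and FPKM of the nigra table together correspond to a length of 3466 bases for Megf9, which is 0.437 times its GENCODE transcript. For Megf6, Megf10 and Megf11 the ratio was 1.13, 1.13 and 1.12, and the median over 17581 genes was 1.13. Each length is a median over libraries, and TPM of Megf11 did not always follow its counts. In PBS striatum libraries 1 and 2 it stood at 13.0 and 10.2 CPM but at 3.62 and 3.90 TPM. Its striatal log2 change for TUG469 against PBS was 0.158 by edgeR and 0.376 by limma on log2(TPM + 1). The sources used here do not give the gene model behind the Megf9 values. As CPM per kilobase of GENCODE transcript, a scale added after seeing the data, Megf9 and Megf10 overlapped in the PBS nigra (7.67 ± 0.301 and 7.51 ± 0.578). On that scale Megf10 was the highest member in each other group, and Megf9 came below Megf11 in nigra libraries labelled 6-OHDA (4.82 ± 0.282 and 5.88 ± 0.34) and TUG469 (3.99 ± 0.115 and 6.34 ± 0.363).

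**Figure D4:**
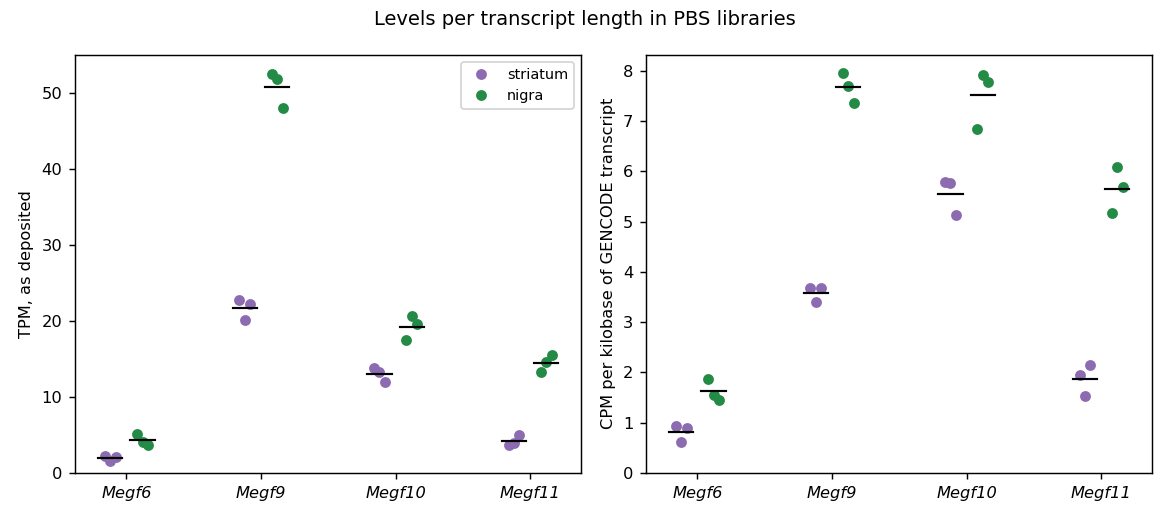
Levels of the 4 genes in PBS libraries of striatum and nigra as deposited TPM (left) and as CPM per kilobase of the longest coding GENCODE transcript (right); points are libraries and bars are means over 3. Megf9 leads at 50.9 TPM in the nigra on the left and lies level with Megf10, at 7.67 against 7.51, on the right.

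Relatives of the family were followed through 3 gene lists. The first holds 8 genes that were first catalogued under MEGF names, among them Lrp4, the receptor for agrin, the cadherins Celsr2 and Celsr3, and the axon guidance genes Slit1 and Slit3. In the nigra, 5 of 8 were lower for 6-OHDA against PBS (median log2 change −0.044), 7 of 8 for TUG469 against 6-OHDA (−0.0783) and 6 of 8 for TUG469 against PBS (−0.162), where the median of all genes was −0.00157, 0.00314 and 0.00868. Medians of the longest class by GENCODE length were −0.131, −0.0274 and −0.164, and the part of length in this list was not tested. None of the 8 passed by edgeR in these comparisons, and 1, 0 and 3 of 8 had an unadjusted p under 0.05, beside 14.3%, 8.2% and 19.7% of all genes. In the striatum 6 of 7 tested were higher for 6-OHDA against PBS (median 0.125), 4 of 7 for TUG469 against 6-OHDA (0.0443) and 6 of 7 for TUG469 against PBS (0.169), with 0 called by edgeR and 1, 0 and 1 at an unadjusted p under 0.05, beside 7.5%, 7.49% and 12.5% of all genes. Slit3 came nearest to a call between groups, for TUG469 against PBS in the nigra. It stood there at 11.2 ± 1.05 CPM in PBS and 7.81 ± 0.60 in TUG469 libraries (n = 3 each, log2 change −0.52, edgeR adjusted p = 0.0687). Of 7 tested between tissues of PBS mice, Slit1 was higher in the nigra (log2 difference 1.66, adjusted p = 7.11e-06) and Slit3 (−2.48, adjusted p = 1.62e-08) and Celsr3 (−0.38, adjusted p = 0.00139) were lower there.

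The second list holds 22 genes of laminins, netrins and other proteins with laminin-type EGF repeats, the kind that MEGF9 carries. In the nigra 17 of 22 were lower for 6-OHDA against PBS (median −0.0922) and 14 of 22 for TUG469 against PBS (median −0.128), and 0 of 22 passed by edgeR in either, with 4 and 5 at an unadjusted p under 0.05, beside 14.3% and 19.7% of all genes. The median of all genes was −0.00157 and 0.00868. Among genes of the longest class by GENCODE length, 82.9% and 81.8% were lower, with medians of −0.131 and −0.164. The part of length in this list was not tested. The smallest p among lower genes belonged to the laminin chain gene Lamb1 in the first comparison, with 15.5 ± 0.309 CPM in the PBS group against 11.7 ± 1.34 in the 6-OHDA group, and to Lama2 in the second, at 20.5 ± 1.48 and 16.8 ± 1.28 (log2 change −0.29, adjusted p = 0.112). Among higher genes it belonged to the scarce Ntn5 in the first, at 0.136 ± 0.00574 and 0.463 ± 0.305 CPM. In the second it belonged to Ntng2, at 10.1 ± 1.90 and 14.15 ± 2.52 CPM (log2 change 0.48, edgeR adjusted p = 0.15). In the striatum 11 of 21 were higher for 6-OHDA against PBS and 14 of 21 for TUG469 against PBS, again with 0 called. At an unadjusted p under 0.05 were 1 and 2 of 21, beside 7.5% and 12.5% of all genes. Between tissues of PBS mice 5 of 21 were higher and 5 lower in the nigra by the test, beside 55.8% of all genes called and 28.5% called higher. The netrin-G gene Ntng1 stood at 14.5 ± 4.56 CPM in the striatum and 137.5 ± 33.3 in the nigra (log2 difference 3.24, adjusted p = 1.73e-06).

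The third list holds 27 receptors, bridging proteins and adaptors of engulfment, the process that MEGF10 serves. In the nigra 16 of 27 were lower for 6-OHDA against PBS (median −0.0109) and 14 of 27 for TUG469 against PBS (median −0.00814), close to the median of all genes. For TUG469 against PBS 0 of 27 rose and 3 of 27 fell by edgeR, beside 1.85% of all genes called. The smallest p was that of Stab2, a scavenger receptor of endothelial cells, at 2.32 ± 0.394 CPM in PBS and 0.842 ± 0.191 in TUG469 libraries (log2 change −1.46, SE 0.207, edgeR adjusted p = 0.0171). The other called genes were the adaptor gene Crk (140 ± 3.33 and 120 ± 3.90 CPM, log2 change −0.23, edgeR adjusted p = 0.0467) and the lipid exporter gene Abca1 (69.8 ± 12.7 and 48.3 ± 3.26 CPM, log2 change −0.53, edgeR adjusted p = 0.0489). With each of 6 libraries left out in turn, Stab2 stayed below the threshold in 3 runs (adjusted p from 0.0183 to 0.0851), Crk in 1 (0.0493 to 0.198) and Abca1 in 1 (0.00395 to 0.199). In nigra libraries labelled 6-OHDA, Abca1 stood at 45.3 ± 0.477 CPM and Stab2 at 2.11 ± 0.12. The log2 change of Abca1 for 6-OHDA against PBS was −0.62, which did not pass. Mfge8, which links dying cells to phagocytes, was at 64.2 ± 10.1 CPM in PBS and 80.0 ± 11.4 in TUG469 libraries (log2 change 0.32, adjusted p = 0.192). In the striatum 0 of 27 passed in any comparison by edgeR. At an unadjusted p under 0.05 were 1, 4 and 5 of 27 for 6-OHDA against PBS, TUG469 against 6-OHDA and TUG469 against PBS, beside 7.5%, 7.49% and 12.5% of all genes. For 6-OHDA against PBS and TUG469 against 6-OHDA in the nigra 0 of 27 passed, with 4 and 5 at an unadjusted p under 0.05, beside 14.3% and 8.2% of all genes. For TUG469 against PBS there, 9 of 27 were at an unadjusted p under 0.05, beside 19.7% of all genes.

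Between tissues of PBS mice 6 of 27 engulfment genes were higher and 9 lower in the nigra by the test, near the 55.8% of all genes called. Tyro3, a receptor kinase of phagocytosis, stood at 263 ± 7.37 CPM in the striatum and 67.9 ± 10.5 in the nigra (log2 difference −1.95, adjusted p = 1.36e-10). Its ligand gene Gas6 stood at 80.9 ± 3.21 and 115 ± 9.37 CPM (log2 difference 0.51, adjusted p = 5.15e-05).

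Genes with a profile most like that of each member were found by Pearson's r of log2 CPM over 18 libraries, each less the mean of its tissue, among genes with a mean of at least 1 FPKM in both tissues. These values describe the libraries, which share their scaling and the trend with transcript length, and carry no test. For Megf9 they were Kif3b (r = 0.938), a kinesin motor gene, Gapvd1 (0.924), Zyg11b (0.913), Ate1 (0.907) and Cds2 (0.904). Their log2 changes for TUG469 against PBS in the nigra lay between −0.43 and −0.21, where that of Megf9 was −0.94. The likeness came largely from the nigra, where r over 9 libraries was 0.923 to 0.996, against 0.375 to 0.776 in the striatum. Megf9 was chosen on a nigral difference and these genes on their likeness to it, so a high nigral r follows in part from the choice. With log2(TPM + 1) in place of log2 CPM, 3 of these 5 remained.

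For Megf10 the nearest genes were Kif5c (r = 0.849), a neuronal kinesin gene, Zfp426 (0.847), Hipk2 (0.816), Shc4 (0.815) and Slc1a2 (0.806), the main glutamate transporter of astrocytes. For Megf6 they were Slc7a1 (0.814), Itih3 (0.807), Imp4 (0.78), the netrin gene Ntn4 (0.763) and Clcn5 (0.753). For Megf11 they were Dner (0.864), a membrane protein gene with EGF-like repeats, Neu1 (0.863), Dipk2a (0.844), Pak1 (0.842) and Smyd2 (0.826), and 0 of these 5 remained with log2(TPM + 1). No member was among the 5 nearest of another, and the highest r between members was 0.448, for Megf6 and Megf9.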

How the data were processed

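The data are RNA sequencing of 18 libraries. Per the labels' protocols, libraries were stranded and poly(A)-selected. Per the submitters' processing notes, the tools were STAR 2.7.3a, Cufflinks, Trim Galore 0.38 and FastQC 0.11.7, on build GRCm38; how reads were counted, and on which strand, the sources used here do not give. The authors deposited a table for each tissue, limited to genes counted in all of its 9 libraries. Per the file headers the values used are raw read counts, FPKM and TPM. The deposited log2 values, group means, standard errors, mean signal, test statistics (scores) and p-values were left unused, and only the authors' signed fold is quoted. Columns of other series numbered 0.

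Counts went into edgeR 4.0.16 (R 4.3.3; quasi-likelihood F test, TMM scaling) after filterByExpr (minimum count 10, minimum total 15), which kept 19115 striatal and 19686 nigral genes. All libraries of a tissue were fitted together, and the tissue comparison used all 18 libraries and 18749 genes. Adjustment was by Benjamini-Hochberg over all genes tested, at 0.05. Alternatives were DESeq2 1.42.0, limma 3.58.1 on log2(TPM + 1), other scaling and filtering, removal of length trends, a replicate block and leaving out single libraries. The procedure was tested on simulated counts. Lengths and overlaps come from GENCODE and coordinates from RefSeq, both on GRCm38.

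The members and the 3 gene lists were chosen with earlier results of these data known. All members are named. List genes named are those with the smallest p in each direction of a comparison, of which some are described. Celsr3 between tissues, and Crk and Abca1 for TUG469 against PBS were named after their values were seen. For each member the 5 genes with the highest correlation are named, predicted genes passed over.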

Additional observations from a re-analysis of the deposited data

How the results depend on the processing

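Among other settings, 25 values of the members and their levels changed direction, lost a call or moved by more than the spread between libraries, and 213 did not; with 1 library left out, 14 changed and 154 did not. Of the 5 genes most like Megf9, 3 remained with log2(TPM + 1), and 0 for Megf11. The cause of the exceptions was not tested. With the length trend from the files' values removed, changes became −0.0122 for Megf11 (striatum, 6-OHDA against PBS), −0.0565 for Megf9 (striatum, TUG469 against PBS), 0.0652 for Megf10 and 0.165 for Megf11 (nigra, 6-OHDA against PBS), 0.00823 for Megf10 (nigra, TUG469 against PBS) and 0.16 for Megf10 between tissues. With GENCODE lengths the same 6 values were −0.000892, −0.00765, 0.0811, 0.174, 0.0352 and 0.131, and those of Megf9 in the nigra were −0.529 and −0.778 and between tissues 0.787. With limma on log2(TPM + 1) Megf9 between tissues was 1.19.

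Same-numbered libraries were not treated as pairs, since the labels do not say that they share an animal and not every correlation of their deviations was above 0.1. It lay at −0.396 to 0.56 in striatum, −0.239 to 0.378 in nigra and −0.0241 to 0.29 between tissues. There 8 of 9 striatal libraries correlated best with their own number among the 3 nigral libraries of their group, a sign of pairing from the data. The main comparison between tissues and the main interaction took the tissues as unpaired. With the replicate number as a block Megf9 became −0.0436 for TUG469 against PBS in striatum, and no call of a member changed, the comparison between tissues and the interaction included.

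With 1 library left out, striatal changes for 6-OHDA against PBS lay at −0.0829 to 0.149 for Megf11. For TUG469 against 6-OHDA they lay at −0.0731 to 0.00139 for Megf6, −0.0141 to 0.229 for Megf9, −0.135 to 0.071 for Megf10 and −0.106 to 0.289 for Megf11, and for TUG469 against PBS at −0.101 to 0.0772 for Megf9 and −0.0616 to 0.332 for Megf11. In nigra Megf6 lay at −0.216 to 0.0718 for TUG469 against 6-OHDA, and between tissues Megf10 lay at 0.224 to 0.342. Megf9 in nigra stayed at −0.703 to −0.624, −0.319 to −0.24 and −0.972 to −0.913 for its 3 comparisons. The log2 ratio of Megf9 to Megf10 levels per GENCODE length was −0.633, −0.578 and −0.419 in striatal and 0.0329, −0.588 and −0.791 in nigral PBS, 6-OHDA and TUG469 libraries.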
